A study of Caenorhabditis elegans with 22 samples.

Results

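Muscle from L3 larvae of a *met-2::degron* strain was compared between worms grown with auxin and worms grown without it, with 2 libraries for each condition. The 4 libraries were taken by their labels and are all the muscle libraries of this strain among the 22 of the series, which otherwise holds muscle, seam and non-muscle cells of N2 (the Bristol wild type) and of histone methyltransferase mutants. The comparison asks what happens to mRNA in differentiated muscle when MET-2 is removed only after hatching. In both conditions the endogenous *met-2* gene on chromosome III carried a degron together with FLAG and NeonGreen tags (allele *gw5*), and the plant auxin receptor TIR1 was expressed from the ubiquitous *eft-3* promoter at a site on chromosome II. Larvae were synchronised at L1, grown to L3 on plates with auxin or without auxin, dissociated and sorted by flow cytometry, and mRNA was read with the Smart-Seq2 protocol for small inputs. Because TIR1 was present in all tissues, MET-2 was targeted outside muscle too. Muscle of auxin-treated larvae without the degron was not analysed here, so an effect of auxin itself and an effect of MET-2 loss cannot be told apart in these 4 libraries.

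MET-2, the worm relative of mammalian SETDB1, methylates lysine 9 of histone H3 (H3K9), a mark of silent chromatin. In somatic cells of *C. elegans* this mark keeps down repeats and many genes that belong to other lineages, germline genes among them. The degron works at the level of protein: auxin lets TIR1 bring the tagged protein to an SCF ubiquitin ligase, and the proteasome then degrades it, while the transcript is untouched by the system. Body wall muscle consists mostly of cells that no longer divide once the larva has hatched.

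The auxin libraries held 24355743 and 11883702 counts and the no-auxin libraries 21865663 and 24159861, and 9891 to 11486 genes reached 10 counts in a library. Transcripts of the targeted gene differed less between conditions than between replicates: *met-2* had 19.1 and 28.02 CPM (counts scaled to a library total of 1000000) with auxin and 18.2 and 27.8 CPM without auxin, with a fitted log2 change of -0.05 ± 0.225 (SE). This says nothing of the protein, which these libraries do not measure. *set-25*, the other H3K9 methyltransferase of the study, had 21.97 and 25.6 CPM with auxin and 20.2 and 24.4 CPM without auxin. Markers of muscle were high throughout. The muscle myosin *unc-54* had 32621 and 41078 CPM with auxin and 41074 and 39699 CPM without auxin, and 32 body wall muscle genes together took 248165 and 262370 CPM with auxin and 267220 and 257699 CPM without auxin. EdgeR and DESeq2 both called 0 of the 32, with 1 at an unadjusted p below 0.05.

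Of 11393 genes tested, 197 were called (1.73%), of which 93 were lower with auxin (0.816% of genes tested) and the others higher (0.913%). Calls came from edgeR's quasi-likelihood test at an FDR under 0.01 (Benjamini-Hochberg) together with a change of over 2-fold. That change, log2FC, was taken between condition means of log2 counts after scaling to equal library size and adding a pseudocount of 8. The counts at an unadjusted p below 0.05 were 705 higher and 713 lower. All genes called higher had both auxin libraries above both no-auxin libraries, an ordering that 27.3% of all genes tested shared, and all 93 called lower had the opposite ordering, which 15.3% of genes tested shared. The median log2FC was 2.02 among genes called higher (range 1.00 to 5.15) and -1.78 among genes called lower (range -3.50 to -1.0045), beside 0.08 over all genes tested. In 54 genes called higher and in 31 called lower, the change exceeded 4-fold.

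Markers of intestine were present in these libraries. Summed over 30 intestinal genes, the auxin libraries had 823 and 832 CPM, the no-auxin libraries 598 and 844 CPM, and N2 muscle of another experiment 266 and 266 CPM. Of the 23 that could be tested, 18 had a positive log2FC, beside 6994 of all 11393 genes tested. Of the 23, 1 was called higher and 0 lower, beside 0.913% and 0.816% of all genes tested. That gene, the lysozyme *lys-1*, had 58.9 and 71.4 CPM with auxin and 28.995 and 34.6 CPM without auxin (0.95 ± 0.172, adjusted p = 0.00457). Unlike the list sum, *lys-1* was higher in N2 muscle, with 140 and 131 CPM, than in any of the 4 degron libraries. The part of intestinal RNA in the results was not tested.

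**Figure D1:**
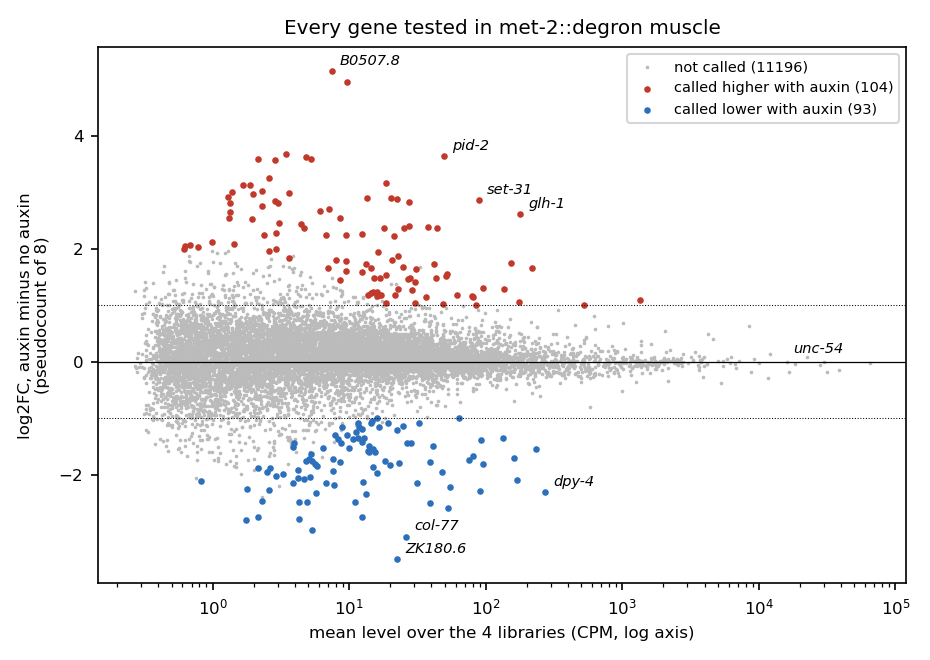
Each of the 11393 genes tested is a point, with its mean level over the 4 libraries on the x axis (CPM, log axis) and its log2FC, auxin minus no auxin, on the y axis; dotted lines mark a 2-fold change. Genes called higher lie across low and middle levels with log2FC up to 5.15, the 93 called lower reach -3.50, and the muscle myosin *unc-54* at the far right lies near 0.

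The counts depended on single libraries without auxin. Without the second no-auxin library 509 genes were called, 197 of them lower, and these held every gene called higher in the fit of 4 libraries and 92 of the 93 called lower. Without the first no-auxin library the counts were 125 higher and 156 lower. In a joint fit with the 8 muscle libraries of the N2 and mutant experiment, only 53 rises and 12 falls remained, all of them among the 197. That fit changed the filter (11099 genes tested), the scaling and the estimate of spread together, and which of them mattered was not tested. Of 197 genes, 42 were called under each of 18 alternative settings, 31 of them rises and 11 falls.

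Several of the largest rises started from almost nothing. *B0507.8* had 378 and 167 counts with auxin and 0 and 2 counts without auxin, at least 113-fold higher against a floor of 3 counts per library. Its neighbour on chromosome V, *ddn-1*, had 420 and 244 counts with auxin and 13 and 0 without auxin, a mean level 63.5-fold higher. *pals-38*, a member of a large family named for a protein signature, had 114 and 47 counts with auxin and 0 in both libraries without auxin, at least 33.0-fold higher. In each of these genes the auxin libraries lay together and far above both untreated libraries. In all, 11 of the genes called higher had no more than 3 counts in either no-auxin library, with lower bounds of 9.50-fold to 113-fold. With these genes set at their bounds the median log2 change of the genes called higher was 2.097.

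Most of the other genes among the 15 largest rises were below 1 CPM without auxin. *WBGene00019208*, *C53A5.9*, *R03H10.6*, *Y2H9A.6*, *F26D11.13*, *droe-8*, *pals-33*, *B0507.6*, *Y6E2A.7* and the F-box gene *fbxb-56* had 2.22 to 11.2 CPM in the auxin libraries and 0 to 0.869 CPM in the no-auxin libraries. Larger amounts of RNA were gained by *pid-2*, which encodes a factor of the germline piRNA pathway. *pid-2* had 88.7 and 95.1 CPM with auxin and 6.59 and 7.45 CPM without auxin, a fitted log2 change of 3.63 ± 0.181 (adjusted p = 6.61e-08). *enu-3.1*, of a family that acts in axon outgrowth, had 36.5 and 30.5 CPM with auxin and 2.52 and 4.47 CPM without auxin (3.18 ± 0.239, adjusted p = 2.44e-06).

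**Figure D2:**
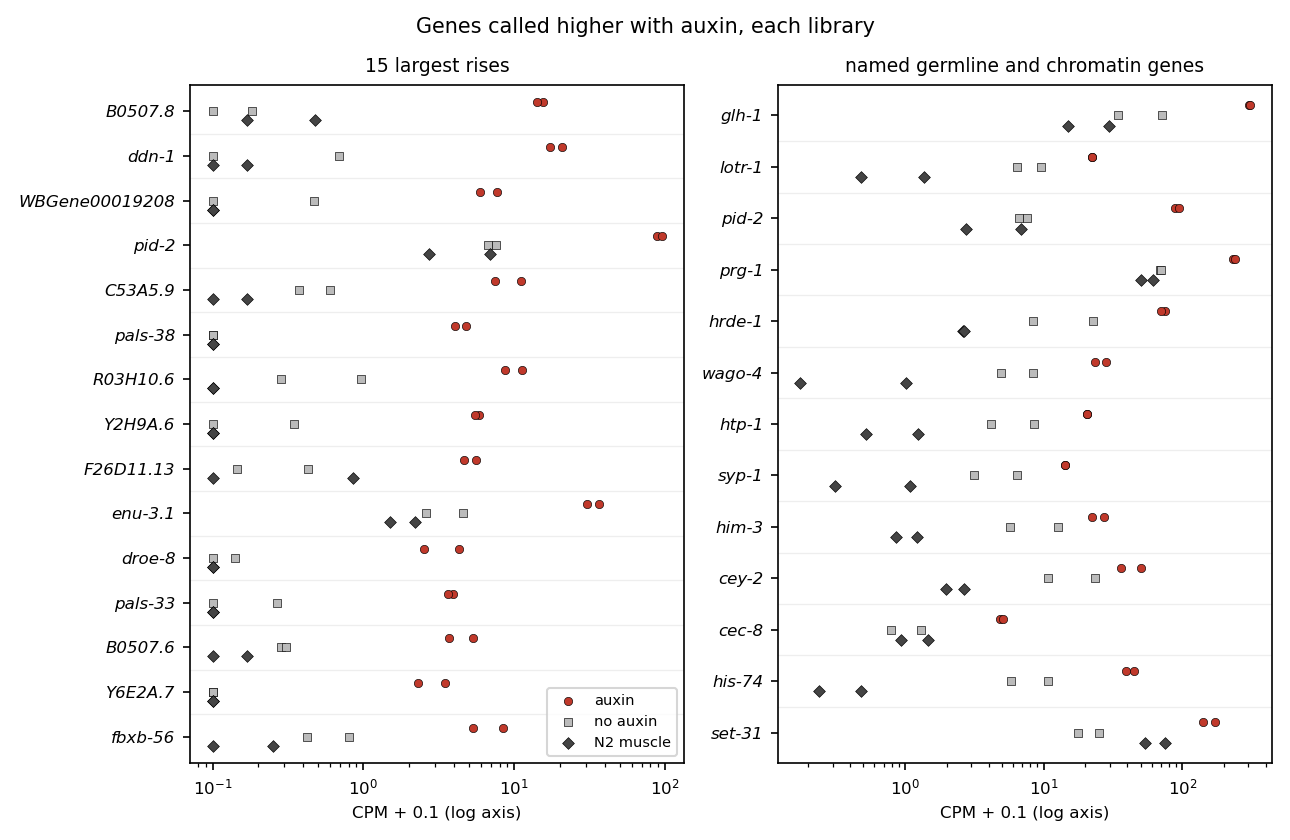
Levels in single libraries (CPM + 0.1, log axis) of the 15 largest rises on the left and of 13 named germline and chromatin genes on the right. Red circles are auxin libraries, grey squares no-auxin libraries and black diamonds N2 muscle of a separate experiment; in every row both red circles lie to the right of both grey squares, and a symbol at 0.1 is a library with 0 counts.

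Germ granule genes were examined because their products form the RNA-rich granules that surround germ cell nuclei. Of 32 such genes tested, 2 were called higher and none lower, beside 0.913% and 0.816% of all genes tested. Their median log2FC was 0.34 beside 0.08 over all genes. *glh-1*, a Vasa-like helicase of P granules, had 7366 and 3629 counts with auxin and 750 and 1724 counts without auxin. That is 302 and 305 CPM with auxin and 34.3 and 71.4 CPM without auxin, a fitted log2 change of 2.46 ± 0.234 (adjusted p = 1.75e-05). The auxin libraries lay together, while the no-auxin libraries differed from each other and both lay well below. *lotr-1*, a LOTUS and Tudor domain protein of germ granules, had 22.4 and 22.1 CPM with auxin and 6.31 and 9.40 CPM without auxin (1.42 ± 0.213, adjusted p = 0.000871), a call lost with library totals alone and in the joint fit of 12 muscle libraries. *pgl-1*, a core P granule protein, had 53.99 and 44.5 CPM with auxin and 8.74 and 25.7 CPM without auxin. The fitted value for *pgl-1* was 1.46 ± 0.302 and its adjusted p of 0.0123 missed the threshold. *pgl-1* was called with no filter on low counts, with the likelihood ratio test and at an FDR of 0.05. It was also called with the size factors of DESeq2 in edgeR, with a replicate block and with counts thinned to the smallest library. With library totals alone, with DESeq2, with a mean of at least 50 counts and in the joint fit (edgeR adjusted p = 0.647) it was not. In *met-2* mutant muscle *pgl-1* was called higher, with 113 and 120 CPM there and 3.70 and 2.19 CPM in N2 muscle. *pgl-2*, a paralogue, had 4.64 and 4.21 CPM with auxin and 3.52 and 4.59 CPM without auxin, so the conditions overlapped.

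Genes of the Argonaute and small RNA pathways silence transcripts in the germline. Of 32 tested, 4 were called higher and 0 lower (median log2FC 0.45), beside 0.913% and 0.816% of all genes tested. The 4 were *pid-2*, *hrde-1*, *wago-4* and *prg-1*. The Piwi protein PRG-1 binds piRNAs. *prg-1* had 231 and 241 CPM with auxin and 69.2 and 70.1 CPM without auxin (1.68 ± 0.161, adjusted p = 1.82e-05). HRDE-1, a nuclear Argonaute, carries inherited silencing. *hrde-1* had 74.6 and 69.9 CPM with auxin and 8.23 and 22.4 CPM without auxin (2.18 ± 0.285, adjusted p = 0.000277). *wago-4*, a cytoplasmic Argonaute, had 28.2 and 23.4 CPM with auxin and 4.85 and 8.28 CPM without auxin (1.90 ± 0.230, adjusted p = 0.000152). A further Argonaute outside this list, *vsra-1*, and *nxf-2*, related to nuclear export factors for mRNA, were called higher too and were picked out after their values were seen. *vsra-1* had 25.05 and 22.4 CPM with auxin and 1.83 and 4.26 CPM without auxin, and *nxf-2* had 38.6 and 40.4 CPM with auxin and 4.44 and 5.63 CPM without auxin.

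Of 52 meiotic genes tested, 3 were called higher and none lower (median log2FC 0.36), beside 0.913% and 0.816% of all genes tested. All 3 build the paired meiotic chromosome. *htp-1* and *him-3* encode HORMA domain proteins of the axis, and *syp-1* encodes part of the synaptonemal complex between the axes. *htp-1* had 20.3 CPM in both auxin libraries and 4.07 and 8.40 CPM without auxin (1.63 ± 0.264, adjusted p = 0.00176). *him-3* had 26.9 and 22.1 CPM with auxin and 5.63 and 12.62 CPM without auxin (1.36 ± 0.266, adjusted p = 0.00807). *syp-1* had 14.2 CPM in both auxin libraries and 3.06 and 6.33 CPM without auxin (1.53 ± 0.288, adjusted p = 0.00622). None of the 3 was called when scaled by library totals alone or in the joint fit of 12 muscle libraries.

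Of 42 regulators of germline mRNA tested, edgeR called 0 and DESeq2 0 (median log2FC 0.36). At an unadjusted edgeR p below 0.05, 3 were higher, beside 705 of all 11393 genes tested. *gld-1*, which represses maternal mRNAs, had 21.6 and 19.3 CPM with auxin and 10.02 and 16.3 CPM without auxin. Of 26 oocyte and early embryo genes, 1 was called higher, beside 0.913% of all genes tested. That gene was *cey-2*, for a cold-shock domain RNA-binding protein of the germline. *cey-2* had 50.2 and 36.2 CPM with auxin and 10.6 and 23.2 CPM without auxin. Of 9 genes on the sperm list that could be tested, *swm-1* was called higher. It encodes a secreted protease inhibitor that restrains sperm activation, and had 281 and 385 CPM with auxin and 98.8 and 109 CPM without auxin (1.601 ± 0.186, adjusted p = 0.000104). *swm-1* was not called in *met-2* mutant muscle, which had 355 and 244 CPM, with 274 and 336 CPM in N2 muscle. N2 non-muscle cells had 141 and 195 CPM of *swm-1*, below both N2 muscle libraries. The major sperm proteins were at most 0.414 CPM summed over the 30 *msp* genes in any of the 4 libraries.

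The libraries without auxin differed from one another in these germline genes. The second exceeded the first in all 52 meiotic genes tested, in 30 of 32 germ granule genes and in 29 of 32 small RNA genes, beside 66.95% of all genes tested. Summed over the meiotic list, the auxin libraries had 408 and 331 CPM and the no-auxin libraries 198 and 334 CPM, so the sums overlapped. Without the second no-auxin library the calls were 5 of 32 germ granule genes, 10 of 32 small RNA genes and 7 of 52 meiotic genes, all higher. Without the first they were 3, 4 and 2. The libraries come from live cells sorted for a muscle reporter, and the share of germ cell RNA in each was not tested.

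**Figure D3:**
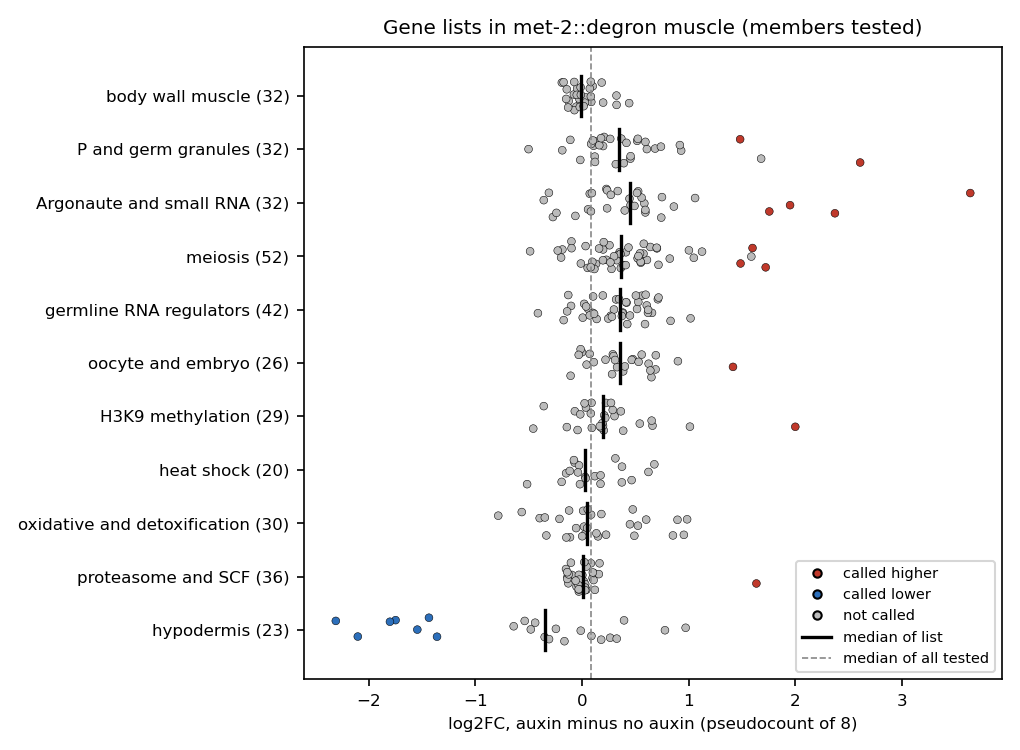
The log2FC, auxin minus no auxin, of every tested member of 11 gene lists, with the number tested in parentheses, the list's median as a black bar and the median of all genes tested (0.08) as a dashed line. Body wall muscle genes cluster at 0 with none called, and 7 blue hypodermal genes lie below the rest of their list. Red points called higher are at most 4 members of a list. They lie in the germ granule, small RNA, meiosis, oocyte and embryo, H3K9 methylation, and proteasome and SCF lists.

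Among the chromatin genes named here, the largest rise was that of *set-31*, a SET domain gene. It had 3414 and 2056 counts with auxin and 387 and 604 counts without auxin, mean levels 7.33-fold apart (2.80 ± 0.191, adjusted p = 1.34e-06). *his-74*, a variant of histone H3, had 1096 and 468 counts with auxin and 125 and 255 counts without auxin (2.30 ± 0.225, adjusted p = 2.04e-05). It was the only one of 26 histone genes tested that was called. Over all genes tested, 1.73% were called in either direction. Of 29 genes for H3K9 methylation, its readers and its anchoring, 1 was called, the chromodomain gene *cec-8*, with 4.72 and 4.96 CPM with auxin and 0.686 and 1.2003 CPM without auxin (2.27 ± 0.410, adjusted p = 0.00457). The call of *cec-8* was lost with library totals alone, in the joint fit, with a mean of at least 50 counts and without the second auxin library (edgeR adjusted p = 0.0109). The anchor *cec-4*, which holds methylated chromatin at the nuclear rim and was picked from this list after its values were seen, had 24.6 and 18.8 CPM with auxin and 9.24 and 11.8 CPM without auxin and missed the threshold (0.96 ± 0.204, adjusted p = 0.0142). Outside the lists, and chosen after their values were seen, *morc-1*, a germline silencing ATPase, had 38.6 and 37.1 CPM with auxin and 10.1 and 13.3 CPM without auxin. *parp-1*, a poly(ADP-ribose) polymerase, had 66.6 and 61.5 CPM with auxin and 14.4 and 25.21 CPM without auxin. Both were called higher.

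Gene families moved unevenly, beside 0.913% of all genes tested called higher and 0.816% called lower. All 5 *enu-3* genes tested were called higher, and they stayed called under each setting that left out a library. Their summed level was 185 and 142 CPM with auxin and 17.2 and 29.5 CPM without auxin, and *enu-3.3* and *enu-3.2* had fitted log2 changes of 2.90 ± 0.214 and 2.78 ± 0.251. Of 36 *pals* genes, 11 passed the filter on low counts, and 4 were called higher (*pals-27*, *pals-33*, *pals-38* and *pals-39*). These 4 had at most 5 counts in either no-auxin library and passed the filter only through their auxin counts. The number tested therefore depended on the rises themselves, and 4 of 11 is not a rate for the family. *pals-26* had 2.34 and 1.51 CPM with auxin and 0.320 and 0.124 CPM without auxin, and missed the threshold (adjusted p = 0.0234). *pals-22* and *pals-25*, also chosen after their values were seen, which govern the response to intracellular infection, had 5.09 and 4.63 CPM and 5.54 and 7.83 CPM with auxin, and 3.02 and 4.93 CPM and 6.17 and 5.17 CPM without auxin. Of 21 tested genes of that infection and immune list, edgeR and DESeq2 both called 0. At an unadjusted edgeR p below 0.05, 5 were higher, beside 705 of all 11393 genes tested. Of 55 F-box genes tested in the *fbxa*, *fbxb* and *fbxc* families 2 were called higher, *fbxb-56* and *fbxa-174*. With 0 counts in both no-auxin libraries, *fbxa-174* also passed the filter only through its auxin counts. These families hold near-identical copies, so single members are uncertain where unique reads are few.

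Lists of stress, detoxification and protein degradation genes were examined as well, beside 1.73% of all genes called in either direction. None of 20 heat shock and unfolded protein genes, 30 oxidative stress and detoxification genes, 27 cytochrome P450 genes or 27 glutathione S-transferase genes was called in either direction by edgeR, with 3, 4, 5 and 2 genes at an unadjusted p below 0.05. Over all 11393 genes tested, 1418 had an unadjusted edgeR p below 0.05. DESeq2 called 0 in each of the 4 lists. *hsp-1*, a constitutive chaperone, had 1334 and 1282 CPM with auxin and 1327 and 1338 CPM without auxin. *gst-4*, a common reporter of oxidative stress, had 35.6 and 40.8 CPM with auxin and 29.2 and 24.96 CPM without auxin (0.40 ± 0.188, adjusted p = 0.403). Of 36 genes of the proteasome and SCF ligases, 1 was called higher. That gene, *skr-2*, encodes a Skp1-like SCF subunit and had 49.1 and 44.8 CPM with auxin and 13.4 and 16.43 CPM without auxin (1.57 ± 0.173, adjusted p = 6.16e-05). Its call was lost in the joint fit of 12 muscle libraries. *skr-2* was called higher in *met-2* mutant muscle too, with 22.6 and 36.9 CPM there and 3.35 and 2.26 CPM in N2 muscle. Of 38 UDP-glucuronosyltransferase genes 1 was called, *ugt-25*, which was lower.

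Other rises were called with auxin but not in *met-2* mutant muscle. Of 36 transthyretin-like genes tested, 4 were called higher (*ttr-24*, *ttr-25*, *ttr-46* and *ttr-51*), beside 0.913% of all genes tested. This family was grouped after the values were seen. *ttr-24* had 685 and 705 CPM with auxin and 313 and 384 CPM without auxin (0.92 ± 0.159, adjusted p = 0.00332), and in the other experiment 825 and 698 CPM in *met-2* muscle and 862 and 1005 CPM in N2 muscle. *asns-2*, an asparagine synthetase chosen in the same way, had 70.8 and 83.2 CPM with auxin and 22.7 and 29.5 CPM without auxin (1.48 ± 0.174, adjusted p = 0.000115). In *met-2* muscle *asns-2* had 374 and 223 CPM and in N2 muscle 337 and 267 CPM. The untreated degron libraries lay below both N2 libraries for both genes. None of the 4 *ttr* genes was called in the joint fit. Of the 18 alternative settings, *ttr-25* kept its call in 17, *ttr-51* in 16, *ttr-24* in 13 and *ttr-46* in 11.

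Collagen genes of the cuticle were among those called lower with auxin. Of 87 *col* collagen genes tested, 19 were called lower and 0 higher, beside 0.816% and 0.913% of all genes tested. Their median log2FC was -0.53. With the collagens of other names added, a family drawn up after the values were seen, 28 were called lower and the median was -0.59. *col-77* had 87 and 84 counts with auxin and 957 and 1181 counts without auxin, or 3.57 and 7.07 CPM with auxin and 43.8 and 48.9 CPM without auxin (-3.27 ± 0.269, adjusted p = 5.99e-06). *col-54* had 0.944 and 0.589 CPM with auxin and 9.88 and 5.67 CPM without auxin (-3.38 ± 0.433, adjusted p = 0.000229). The largest fall by log2FC was that of *ZK180.6*, with 5.09 and 2.02 CPM with auxin and 49.2 and 33.5 CPM without auxin (-3.56 ± 0.322, adjusted p = 1.19e-05). Its neighbour *ZK180.5* had 11.5 and 18.8 CPM with auxin and 93.1 and 87.5 CPM without auxin. Conditions were well apart in each of these genes.

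The body-shape collagens, which hypodermal cells secrete into the cuticle, were the hypodermal genes called lower. Of 23 hypodermal genes tested, 7 were called lower and 0 higher, beside 0.816% and 0.913% of all genes tested. Of the 23, 16 had a negative log2FC, beside 4399 of all 11393 genes tested. Their median log2FC was -0.35, beside 0.08 over all genes tested. The 7 called were *dpy-4*, *dpy-5*, *dpy-13*, *rol-6*, *sqt-1*, *sqt-2* and *sqt-3*. *dpy-4* had 81.4 and 97.3 CPM with auxin and 566 and 345 CPM without auxin (-2.46 ± 0.246, adjusted p = 2.52e-05). *dpy-13* had 59.7 and 65.97 CPM with auxin and 323 and 227 CPM without auxin (-2.23 ± 0.212, adjusted p = 1.75e-05), and *sqt-3* had 118.8 and 114 CPM with auxin and 427 and 269 CPM without auxin (-1.69 ± 0.224, adjusted p = 0.000308). The first no-auxin library was the higher of the pair in all 7. Some other members of the list, picked after their values were seen, were not called and do not stand for the rest of it. The collagen gene *dpy-7* had 8.70 and 11.02 CPM with auxin and 8.46 and 8.73 CPM without auxin. Among hypodermal transcription factors, 3 were not called. *lin-26*, which specifies hypodermal fate, had 13.8 and 9.93 CPM with auxin and 9.97 and 13.9 CPM without auxin, *elt-3* had 3.24 and 3.28 CPM with auxin and 1.23 and 2.40 CPM without auxin, and *nhr-23*, which drives moulting, had 12.9 and 7.83 CPM with auxin and 6.13 and 10.2 CPM without auxin.

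Of 56 Hedgehog-related and Patched-related genes tested, 8 were called lower and 0 higher, beside 0.816% and 0.913% of all genes tested. This grouping was made after the values were seen. *wrt-4*, one of the Hedgehog-related genes, had 7 and 3 counts with auxin and 86 and 101 counts without auxin (-3.95 ± 0.502, adjusted p = 0.000216). *grl-16*, a ground-like relative, had 11.5 and 11.1 CPM with auxin and 72.3 and 60.7 CPM without auxin (-2.66 ± 0.195, adjusted p = 2.39e-06). Of 31 heterochronic and moulting genes, 15 had a positive log2FC and the median was -0.05, beside 6994 of 11393 and 0.08 over all genes tested. Of these, *mlt-8* and *mlt-10* were called lower, with 8.25 and 5.97 CPM and 5.30 and 5.30 CPM with auxin, and 18.9 and 18.1 CPM and 16.19 and 11.5 CPM without auxin. *cut-2*, a cuticlin gene chosen after its values were seen, had 16.6 and 21.04 CPM with auxin and 106 and 73.8 CPM without auxin. *nlp-33*, an antimicrobial peptide of the epidermis, had 13.9 and 12.29 CPM with auxin and 37.4 and 25.5 CPM without auxin (-1.36 ± 0.229, adjusted p = 0.00246). The pharyngeal *abu-14* was called lower as well, the 1 called among 13 pharyngeal genes tested.

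Summed over the hypodermal list, the auxin libraries had 523 and 549 CPM and the no-auxin libraries 1947 and 1294 CPM, while N2 muscle of the other experiment had 78.2 and 77.1 CPM. Most of this sum came from the 7 members called lower, with 395 and 404 CPM with auxin and 1779 and 1146 CPM without auxin. The other 17 members together had 128 and 145 CPM with auxin and 167 and 148 CPM without auxin. The 93 genes called lower had a median of 70.2 CPM in N2 non-muscle cells and 1.27 CPM in N2 muscle. In 92 of the 93 the non-muscle level was the higher one, beside 78.9% of all genes tested. Among the genes called higher this held for 66, a smaller share than the 78.9%. In 92 of the 93, too, the untreated degron libraries exceeded N2 muscle, and in 79 the auxin libraries did too. In bulk libraries, fewer cells of a type and less RNA per cell cannot be told apart, and the part of hypodermal RNA in the falls was not tested. In the joint fit of 12 muscle libraries 2 hypodermal genes (*dpy-4* and *dpy-13*) and 7 collagens were still called lower, and with library totals alone 4 and 15.

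**Figure D4:**
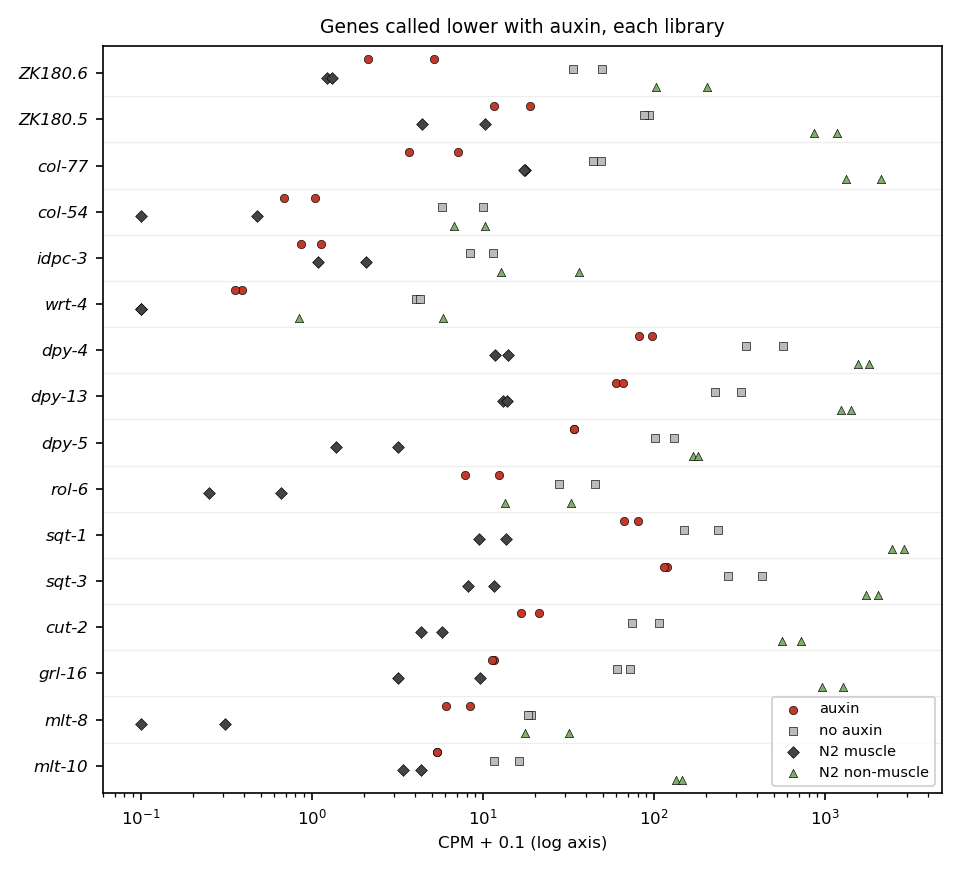
Levels in single libraries (CPM + 0.1, log axis) of 16 genes called lower with auxin, with auxin libraries as red circles, no-auxin libraries as grey squares, and N2 muscle (black diamonds) and N2 non-muscle cells (green triangles) from a separate experiment. Both red circles lie left of both grey squares in every row, and N2 muscle lies left of the red circles except for *col-77*, at 17.4 CPM in both N2 muscle libraries, and *idpc-3*.

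Chromosome V held 37 of the genes called higher (35.6%) and 28 of those called lower (30.1%), beside 18.5% of genes tested, and chromosome X held 5 of the genes called higher (4.81%), beside 14.4%. Runs of called genes at most 3 steps apart in gene order took in 21 of the 101 placed genes called higher, among them *prg-1* with *D2030.7*, *nxf-2* with *set-31*, *ddn-1* with *B0507.8*, *pals-38* with *pals-39*, and *Y6E2A.4*, *Y6E2A.5* and *Y6E2A.7*. Runs took in 17 of the 92 placed genes called lower, among them *ZK180.5* with *ZK180.6* and *idpc-3* with *idpc-4*. Reads were counted in the orientation of the gene, but Smart-Seq2 does not as a rule mark strand, so reads of overlapping neighbours cannot be told apart. These are descriptions, and no test was made of them.

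Genes called higher were low but not all silent without auxin. In RPKM, which divides CPM by exonic length in kilobases, 62 of them (59.6%) had under 5 in untreated degron muscle, beside 51.3% of genes tested. Under 1 RPKM the counts were 37 (35.6%) and 18.3% of genes tested. Genes called lower started higher, with 16 of 93 (17.2%) under 5 RPKM without auxin. The median level of genes called higher was 13.02 RPKM with auxin and 2.85 RPKM without auxin, and that of genes called lower was 6.004 RPKM with auxin and 17.3 RPKM without auxin.

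The change with auxin was set beside that of a constitutive mutant, muscle of *met-2(n4256)* larvae against N2 muscle, which shares no library with it. In that experiment 199 of 9167 genes tested were called higher (2.17%) and 6 lower (0.0655%). Of the genes called higher with auxin, 66 were called higher in the mutant too, which is 63.5% of those called with auxin and 33.2% of those called in the mutant. None of the 93 genes called lower with auxin, 77 of which could be tested in the mutant, was called there in either direction. Of the 77, 43 had a negative log2FC in the mutant, with a median of -0.17 over the 77. *col-77* had 3.04 and 4.55 CPM in *met-2* muscle and 17.4 CPM in both N2 muscle libraries. Its fitted log2 change there was -2.23 ± 0.500 and its edgeR adjusted p of 0.0296 missed the threshold. The 66 shared genes include *glh-1*, *lotr-1*, *pid-2*, *prg-1*, *hrde-1*, *wago-4*, *htp-1*, *him-3*, *syp-1*, *cec-8*, *set-31*, *his-74* and the 5 *enu-3* genes. The other 38 had a median log2FC of 0.17 in the mutant. Their median level was 11.21 CPM in untreated and 26.44 CPM in auxin-treated degron muscle, below the 47.03 CPM of N2 muscle in the separate experiment. Among all genes called higher with auxin, the untreated degron libraries exceeded N2 muscle in 61 and the auxin libraries in 81.

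For the shared genes the change in the mutant was larger. Their median log2FC was 2.42 with auxin and 4.44 in the mutant, and 63 of the 66 had the smaller value with auxin. *glh-1* had 1808 and 1774 CPM in *met-2* muscle and 29.6 and 14.8 CPM in N2 muscle, a fitted log2 change of 6.31 ± 0.339, beside the 2.46 ± 0.234 with auxin. Both ends of the comparison differed. Medians over the 66 genes were 37.6 CPM in *met-2* muscle and 19.6 CPM in auxin-treated degron muscle, and 3.31 CPM in untreated degron muscle and 0.797 CPM in N2 muscle, and 52 of the 66 were higher in untreated degron muscle than in N2. These levels come from separate experiments, in which ribosomal protein genes took 11.6% to 12.98% of counts in the degron libraries and 3.37% to 4.37% in the *met-2* and N2 libraries, so strain and experiment cannot be told apart in them.

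**Figure D5:**
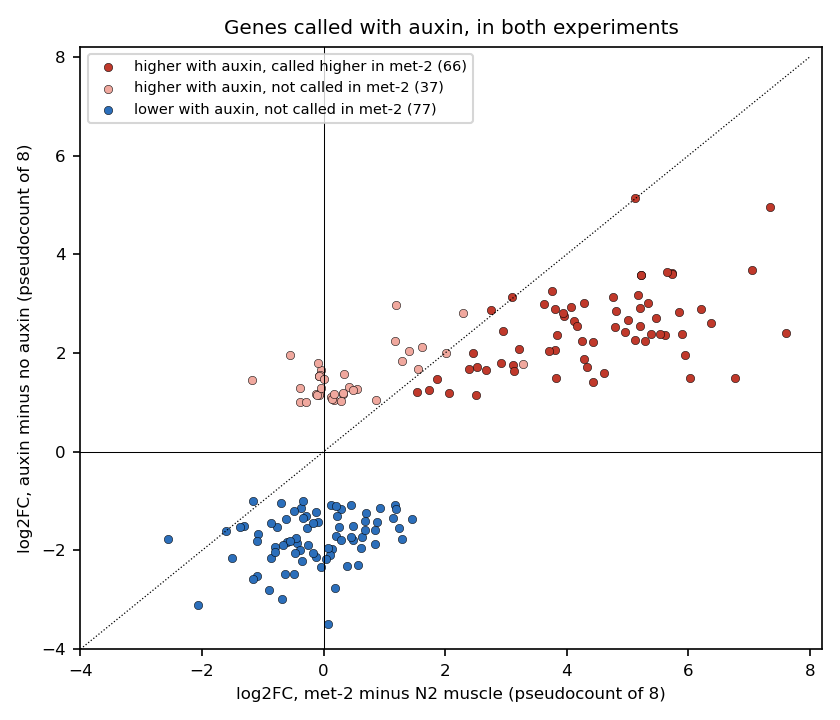
The log2FC of genes called with auxin, auxin minus no auxin on the y axis, against their log2FC in *met-2* minus N2 muscle on the x axis, with equality as a dotted line. Of 103 genes called higher and tested in both experiments, 66 were also called in the mutant and mostly lie below the dotted line, 37 were not, and the 77 genes called lower scatter around 0 on the x axis.

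The difference between the effects was tested directly as an interaction over 12 muscle libraries. Of 11099 genes tested, 58 passed an FDR of 0.01 (0.523%), 56 with a smaller or more negative change with auxin (0.505%) and 2 with a larger one (0.018%). Of the 58, 54 had been called higher in the mutant and 23 were called higher with auxin. *glh-1* differed by -3.88 ± 0.434 on the log2 scale (adjusted p = 0.00043), *hrde-1* by -3.74 ± 0.457 and *prg-1* by -1.45 ± 0.230. *set-31* differed by 0.04 ± 0.384, with 412 and 454 CPM in *met-2* muscle and 74.6 and 53.7 CPM in N2 muscle. *dpy-4* and *sqt-1*, both called lower with auxin, differed by -2.88 ± 0.482 and -2.99 ± 0.499. The 2 genes with a larger change with auxin were *F35F10.5*, which was not called with auxin (adjusted p = 0.0159), and *Y19D10B.6*, which was. *Y19D10B.6* had 13.4 and 12.03 CPM with auxin and 3.80 and 5.13 CPM without auxin, and in the other experiment 115.5 and 118.7 CPM in *met-2* muscle and 310 and 229 CPM in N2 muscle. The count of 58 fell to 27 without the second auxin library and to 29 without the first auxin library or the second N2 library, and it lay between 34 and 47 without each of the other 5.

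Genes called in the mutant alone were mostly higher with auxin too, below the thresholds. Of 133 such genes, 123 could be tested with auxin, 114 of them had a positive log2FC, and 60 were higher at an unadjusted p under 0.05, with a median log2FC of 0.72. Over all genes tested with auxin, 6994 of 11393 had a positive log2FC and 705 were higher at an unadjusted p under 0.05. *vha-7*, an a subunit of the V-ATPase, is one of them. It had 5.54 and 8.41 CPM with auxin and 3.20 and 3.23 CPM without auxin (1.02 ± 0.331, adjusted p = 0.141), and 40.6 and 37.7 CPM in *met-2* muscle with 0 counts in both N2 muscle libraries. *cbd-1*, an eggshell protein, had 39.6 and 30.97 CPM with auxin and 13.2 and 34.9 CPM without auxin, so the conditions overlapped.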

How the data were processed

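The deposited tables hold raw counts per gene. The authors aligned Smart-Seq2 reads to ce10 with HISAT2 through QuasR and counted unique reads in WormBase exons in the orientation of the gene. All 4 degron libraries were fitted alone with edgeR 4.0.16 in R 4.3.3 (TMM factors, filterByExpr, glmQLFit and glmQLFTest, two-sided, Benjamini-Hochberg), with the threshold of the study's methods (FDR under 0.01 and 2-fold, pseudocount of 8). CPM used library totals and RPKM the deposited exonic widths. Mutant and N2 muscle were fitted over 8 libraries, taken from N2, from each single mutant (*met-2* or *set-25*) and from the double mutant. The interaction and the joint fit, each over 12, added the 4 degron libraries to these. All of these genotypes therefore entered the scaling and the estimate of spread in those fits. The fit was tested on simulated data. Of 20392 gene IDs, 19182 were matched to symbols. The labels give 2 independent biological replicates per condition. Members and gene lists were chosen with earlier results of these data known. Named genes were the 15 largest rises, the 8 largest falls, up to 4 called and the first 2 members of each list, and a few fixed genes; others are named as members of a called group or run, or were chosen after their values were seen. Alternatives were another scaling, filter, test, pseudocount, fold rule, FDR, joint fit, replicate block, thinning (added later) and each library left out. No set test was run.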

Additional observations from a re-analysis of the deposited data

Results flagged for a closer look

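For 15 named genes the change with auxin differed from the change in *met-2* mutant muscle by the interaction test at an adjusted p under 0.01. Each value here is the log2 change with auxin minus that in the mutant. Among germ granule, small RNA and meiotic genes it was -3.88 for *glh-1*, -6.01 for *lotr-1*, -3.74 for *hrde-1*, -4.999 for *wago-4*, -1.45 for *prg-1* and -3.95 for *syp-1*. In the *enu-3* family it was -2.39 for *enu-3.1*, -3.33 for *enu-3.2*, -3.69 for *enu-3.3* and -3.22 for *enu-3.5*. It was -4.91 for the histone variant *his-74*, -3.61 for *gld-1* and -4.36 for *cbd-1*, neither of which was called with auxin, and -11.43 for *vha-7*, a fitted value that depends on the prior count because both N2 libraries had 0 counts. For the collagen *dpy-4* it was -2.88, where the mutant was not called (18.6 and 15.2 CPM in *met-2* muscle, 13.9 and 11.6 CPM in N2 muscle).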

How the results depend on the processing

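None of the 56 called genes named by the rule above changed sign. Against 197 genes called (0.913% of genes tested higher, 0.816% lower), library totals alone gave 90 (0.474% and 0.316%), no filter on low counts 349 (1.04% and 1.07%), the likelihood ratio test 345 (1.53% and 1.501%), an FDR of 0.05 gave 320 (1.46% and 1.35%) and the joint fit 65 (0.478% and 0.108%). Without the filter 16528 genes were tested. For the others the cause was not tested. DESeq2 1.42.0 called 229, its size factors in edgeR 220, and thinning to the smallest library 200. Leaving out 1 library gave 174 to 509 (0.668% to 2.65% higher, 0.767% to 1.67% lower), with a lone library assumed to vary like the others. The replicate block gave 280, and deviations of same-numbered libraries correlated at -0.22, so the numbers were not taken to pair them. The crossed pairing, added after seeing the data, gave 379 (1.68% and 1.65%). Of 56 named genes called, 24 lost the call with library totals and 24 in the joint fit. Among these 56, leaving out the first no-auxin library ended the call of *lys-1*, *him-3*, *cey-2* and *nlp-33*. Leaving out the second no-auxin library ended that of *abu-14*. Without the first auxin library *cey-2* and *mlt-10* lost the call. Without the second auxin library *abu-14*, *lys-1*, *syp-1*, *cec-8*, *mlt-8*, *ugt-25*, *pals-39* and *fbxa-174* lost it. Genes named in the text outside these 56, such as the *ttr* genes, are not in this listing. The interaction had 27 to 47 genes with 1 library left out and 52 with the replicate block, against 58. Without a filter 383 genes were called in the mutant, against 205. Genes near the floor of 3 counts are limited by depth, which was least, at 11883702 counts, in the second auxin library.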
